A study of Mus musculus with 6 samples.

Results

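Matrix metalloproteinases (MMPs), ADAM and ADAMTS proteases and their tissue inhibitors (TIMPs) were examined in the liver of Fra-1hep mice, in which hepatocytes overexpress the AP-1 subunit Fra-1. Members were the genes whose probe carries a RefSeq accession of a mouse symbol that starts with Mmp, Timp, Adam or Adamts and goes on with a digit. This gave 79 genes with 105 probes among 37119 genes on the array, namely 22 Mmp, 34 Adam, 19 Adamts and 4 Timp genes. Each gene was represented by its brightest probe.

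Fra-1hep mice were on the C57BL/6J strain, aged 26 to 28 weeks and untreated, and the control was a pool of liver RNA from 5 chow-fed C57BL/6J wild-type mice of that age. On 5 Agilent arrays the RNA of a single Fra-1hep mouse in the dye Cy5 was set against the wild-type pool in Cy3. A sixth array carried pooled Fra-1hep RNA with the dyes exchanged, and its ratio was turned to Fra-1hep over wild type. The labels name 5 single mice and the dye-swapped pools, while the design text counts 6 single mice; groups follow the labels. No source used here names the promoter that drives the transgene. The wild-type pool is 1 control sample, so the spread between wild-type mice does not enter any test. Total liver RNA mixes hepatocytes with other cells, and fewer cells of a type and less RNA per cell cannot be told apart.

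MMPs are zinc proteases that cut collagen, gelatin, proteoglycans and other matrix proteins, and most are secreted as inactive precursors. TIMPs bind and block them. ADAMs are membrane proteins of which some shed growth factors, cytokines and receptors from the cell surface while others have no protease activity, and ADAMTS enzymes are secreted and process procollagen, proteoglycans or von Willebrand factor. In liver these genes are known mainly from stellate cells, leukocytes and the turnover of scar matrix. Several MMP genes carry a binding site for AP-1, the dimer of Fos and Jun proteins to which Fra-1 belongs, and are textbook AP-1 targets.

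Across the arrays, 48.5 to 58.9% of 55681 probes stood well above background for Fra-1hep RNA, and 45.0 to 50.7% did for wild-type RNA. The arrays of mice 2 and 3 differed by 0.90 times the spread of replicate spots. For the other 9 pairs of mice this was 1.63 to 2.21 times. The arrays of mice 2 and 3 were therefore averaged, which leaves n = 4 single-mouse Fra-1hep samples. The main fit also uses the array of the Fra-1hep pool, which n does not count. Whether that pool holds RNA of the same mice was not established here, and the fit treats its array as independent of theirs. The probe for Fosl1, the gene of Fra-1, was above background on 0 arrays in either channel and does not check the labels. Marker lists of other cells also differed: 10 of 12 neutrophil markers tested were higher (median log2 ratio 2.18) and 0 lower. Of 17 macrophage markers 11 were lower and 2 higher (Spp1 and Trem2). Of 11 endothelial markers 7 were lower and 1 higher (Vwf), and of 10 lymphocyte markers 6 were lower and 0 higher. Of the defining markers of hepatocytes, 9 of 10 had a probe and were tested, with 1 higher and 2 lower, and no marker list lost a measured gene to background on all arrays.

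Of the 79 genes, 43 were bright enough to be tested. The test required a probe well above background on 3 or more of the 5 mouse arrays for Fra-1hep RNA, or on 3 or more of all 6 arrays for wild-type RNA. Among the 36 others, 25 had no probe above background on any array and 11 were above it on too few. In both channels of all 6 arrays, 31 genes were above background. Detection differed by class. Of 9 broadly expressed proteolytic ADAM genes, 8 were tested, while of 21 ADAM genes known from testis and epididymis 9 were tested and 8 had no array above background.

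**Figure D1:**
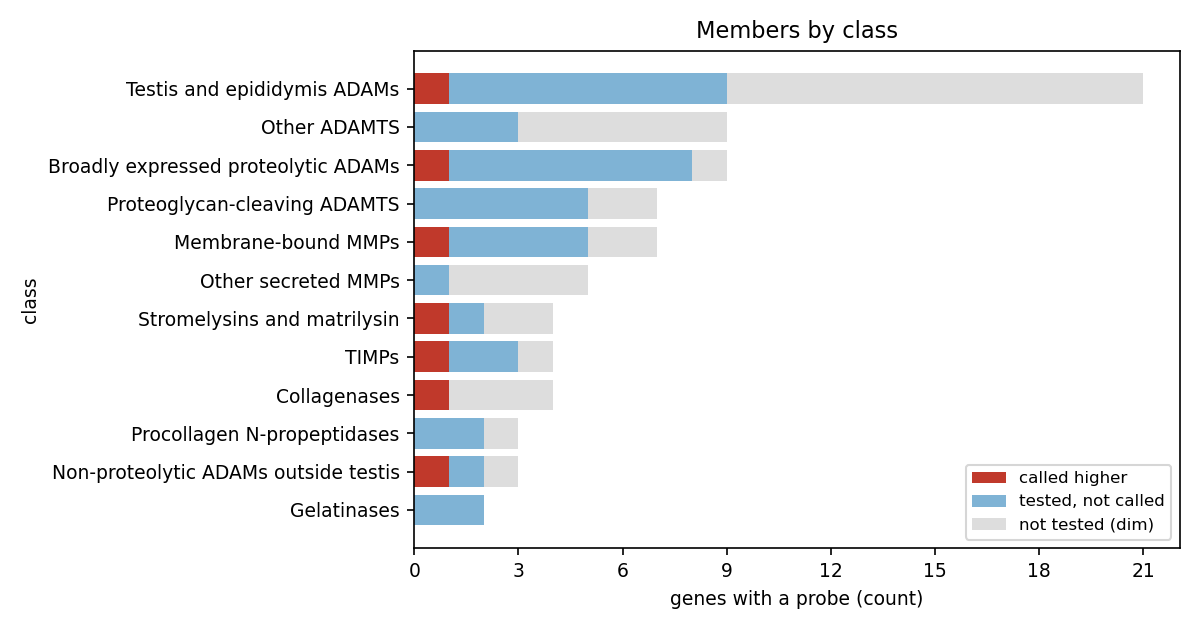
Number of genes with a probe in each class of the family (horizontal axis, a count), split into those called higher in Fra-1hep liver, those tested and not called, and those too dim to test; Adam34l, in no class, is left out. The testis and epididymis ADAM genes form the longest bar, with 9 of 21 tested, and 7 classes hold 1 called gene each.

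Of the 43 tested genes, 7 were higher in Fra-1hep liver and 0 lower at an adjusted p under 0.05 (limma, adjusted by Benjamini-Hochberg over all 22846 genes tested). Over all genes tested 12.5% were called, with 5.97% higher and 6.51% lower, against 16.3% of the family, all higher. At an unadjusted p under 0.05 there were 17 members, of which 2 were lower. The share of all genes at that unadjusted threshold was not counted here. The 17, and the smaller counts at that threshold given below, therefore have no baseline. The higher genes were the metalloproteinases Mmp8, Mmp11 and Mmp23, the inhibitor Timp2, and Adam11, Adam32 and Adam33. No ADAMTS gene of the 10 tested was called. Of the 7 called, Mmp8 passed the filter only through Fra-1hep RNA, which favours a ratio above 0. Its wild-type level was above background on 1 of 6 arrays. The median log2 ratio was 0.07 over the tested members and 0.01 over all genes tested, but 4 tested members had no wild-type array above background and 0 had no Fra-1hep array above it. Among the 31 members that passed background for both RNAs on every array, 6 were called and the median was 0.14, against a median of 0.01 and 14.1% called over all genes under that filter. Ratios of the tested members ran from -0.44 for Adam23 to 1.12 for Adam11. On all 6 arrays 14 tested members kept 1 direction, among them the 7 called. The share of all genes that did so was not counted here, and the arrays share 1 wild-type pool.

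**Figure D2:**
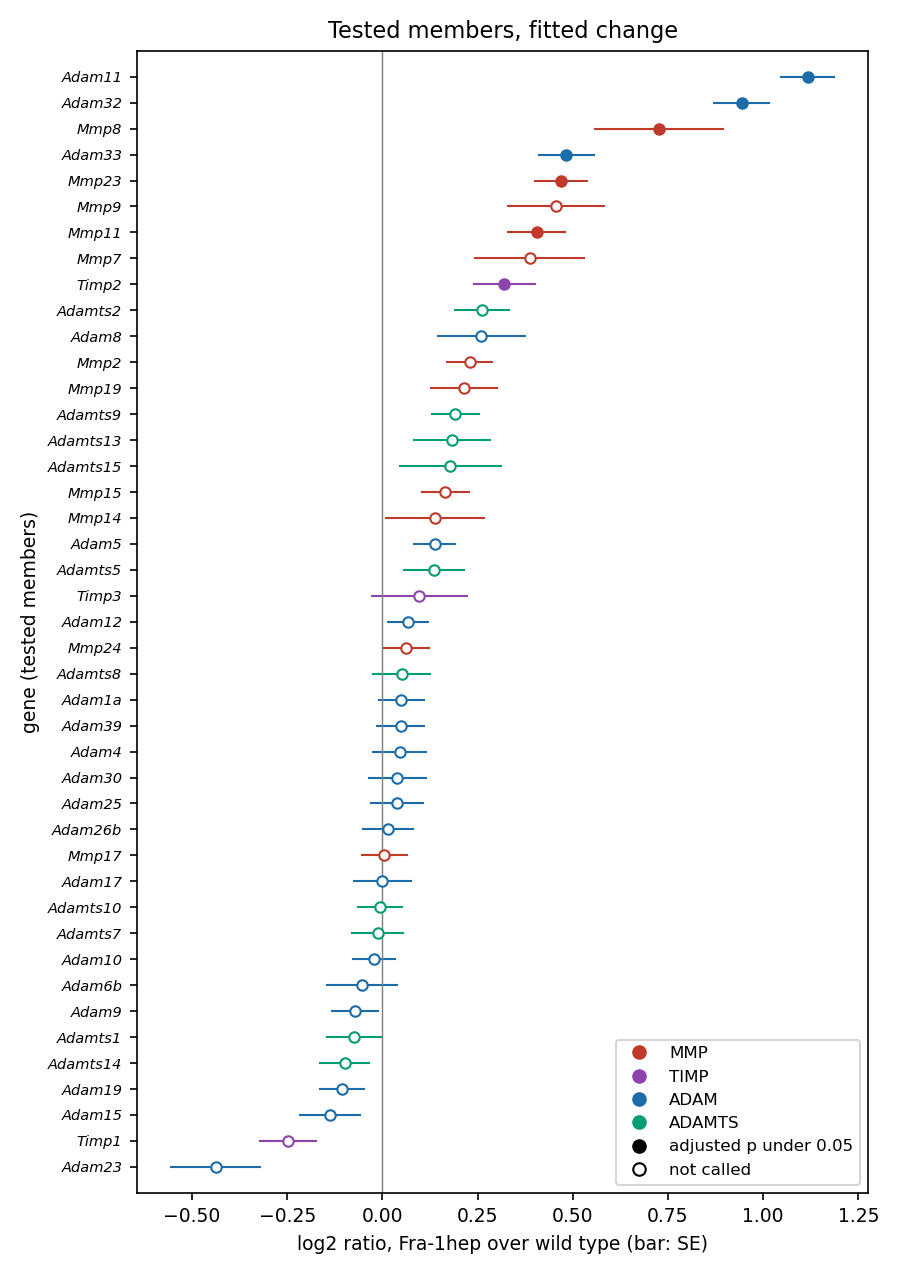
Fitted log2 ratio of Fra-1hep over wild type (horizontal axis) with its SE for each of the 43 tested genes, coloured by family, with filled points for an adjusted p under 0.05. The 7 filled points all lie to the right of 0, from 0.32 for Timp2 to 1.12 for Adam11, and the lowest open point is Adam23 at -0.44.

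Among the collagenases, Mmp8 was the only 1 of 4 genes that could be tested, and it passed the filter only through Fra-1hep RNA. Mmp8 encodes the neutrophil collagenase, which is stored in granules. Its log2 ratios (probe A_51_P231320, NM_008611) were 0.33, 0.77, 1.03, 1.37 and 0.51 in mice 1 to 5 and 0.68 on the dye-swapped array. All 6 ratios were above 0, lowest in mice 1 and 5 and highest in mouse 4. Above background were 5 of 6 arrays for Fra-1hep RNA and 1 of 6 for wild-type RNA, so the wild-type level was hardly measured and the size of the ratio is uncertain. With that limit the fitted ratio was 0.73 (SE 0.17, n = 4, adjusted p = 0.0313). With the scanner software's processed signals the ratio was 3.21 and the adjusted p 0.0591, which ends the call.

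Of 12 neutrophil markers tested, 10 were higher, as Mmp8 was, while Csf3r and Prtn3 were not called (log2 ratios 0.09 and -0.09). All 12 with a probe were above background on some array, and their summed signal ranged from 38220 to 89730 for Fra-1hep RNA and from 24870 to 30390 for wild-type RNA. The median log2 ratio of the list was 1.02 in mouse 1 and 0.98 in mouse 5, against 2.57, 2.50 and 2.85 in mice 2, 3 and 4 and 2.52 in the pool. S100a9 and S100a8, the calprotectin subunits, had log2 ratios of 3.53 (adjusted p = 0.0019) and 3.48 (adjusted p = 0.00216). Mice 1 and 5 were the lowest both for this list and for Mmp8, and also for Mmp7, Mmp14 and Adamts15. The part of neutrophil number in the Mmp8 result was not tested.

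The gelatinases Mmp9 and Mmp2, which digest denatured collagen, were both tested and not called. Mmp9 (A_52_P507214), also a neutrophil granule enzyme, had log2 ratios of 0.06, 0.51, 0.43, 0.83 and 0.24 in mice 1 to 5 and 0.51 in the pool. Again mice 1 and 5 were lowest and mouse 4 highest. The fitted ratio was 0.46 (SE 0.13, n = 4, adjusted p = 0.0595). The wild-type channel was above background on 0 of 6 arrays, so the wild-type level was hardly measured and the size of the ratio is uncertain. The mean Fra-1hep signal of the mouse samples was 1.32-fold the wild-type signal. Raising wild-type signals to at least the dimmest signal that still passed as above background left their mean log2 at 6.366. The 1.32-fold is therefore the measured ratio and not a lower bound. Without mouse 1 the adjusted p was 0.0341 and without mouse 4 it was 0.0416, and with the processed signals the ratio was 1.90 at an adjusted p of 0.0431. With slide as a fixed block the adjusted p was 0.0377 and as a random block 0.033, and Mmp9 passed the threshold in 10 of 18 alternatives (adjusted p from 0.0108 to 0.0896). Mmp2, made mainly by stellate cells and fibroblasts and named here after its values were seen, had ratios between 0.07 and 0.34 on all 6 arrays and a fitted ratio of 0.23 (SE 0.06, adjusted p = 0.0531). It passed the threshold in 9 of 19 alternatives, with an adjusted p from 0.0322 to 0.104.

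Of the stromelysins and matrilysin, Mmp11 was higher. Mmp11 encodes stromelysin 3, which is known from stromal cells around remodelling epithelium and is activated inside the cell. Its log2 ratios (A_55_P1989698, NM_008606) were 0.49, 0.21, 0.45, 0.69 and 0.42 in mice 1 to 5 and 0.33 in the pool. Mouse 2 was lowest and mouse 4 highest, and no array lay at or below 0. The fit gave 0.41 (SE 0.08, n = 4, adjusted p = 0.0146). A second probe gave 0.25, with all arrays between 0.17 and 0.30. That probe was above background on 6 of 6 arrays for Fra-1hep RNA but on 1 of 6 for wild-type RNA, so its ratio is uncertain.

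Matrilysin, Mmp7, which in liver is known from biliary epithelium, was not called and had the largest spread between mice of all tested members that were not called. Its log2 ratios (A_51_P426096) were 0.05, 0.68, 0.53, 0.85 and 0.13 in mice 1 to 5 and 0.37 in the pool. The arrays of mice 1 and 5 lay near 0 and the others well above it, and the fit gave 0.39 (SE 0.14, n = 4, adjusted p = 0.135). Of 7 cholangiocyte markers 2 were higher, Spp1 (osteopontin, log2 1.04) and Epcam (0.41), and their part in the Mmp7 values was not tested.

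Mmp23 was the called gene among the 5 membrane-bound MMPs tested. It encodes a membrane-anchored metalloproteinase with an immunoglobulin-like domain in place of the usual hemopexin domain. Log2 ratios of its single probe (A_51_P502132, NM_011985) were 0.40, 0.69, 0.64, 0.39 and 0.45 in mice 1 to 5 and 0.46 in the pool. All arrays were within 0.39 to 0.69, and the fit gave 0.47 (SE 0.07, n = 4, adjusted p = 0.00589).

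Mmp14, the membrane type 1 enzyme that activates the Mmp2 precursor together with Timp2, had no common direction. Its log2 ratios (A_52_P304128) were -0.51, 0.26, 0.23, 0.12 and -0.22 in mice 1 to 5 and 0.37 in the pool. Mice 1 and 5 lay below 0 and the other arrays above, with a fitted ratio of 0.14 (SE 0.13, adjusted p = 0.562), and the mouse arrays alone gave -0.090.

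**Figure D3:**
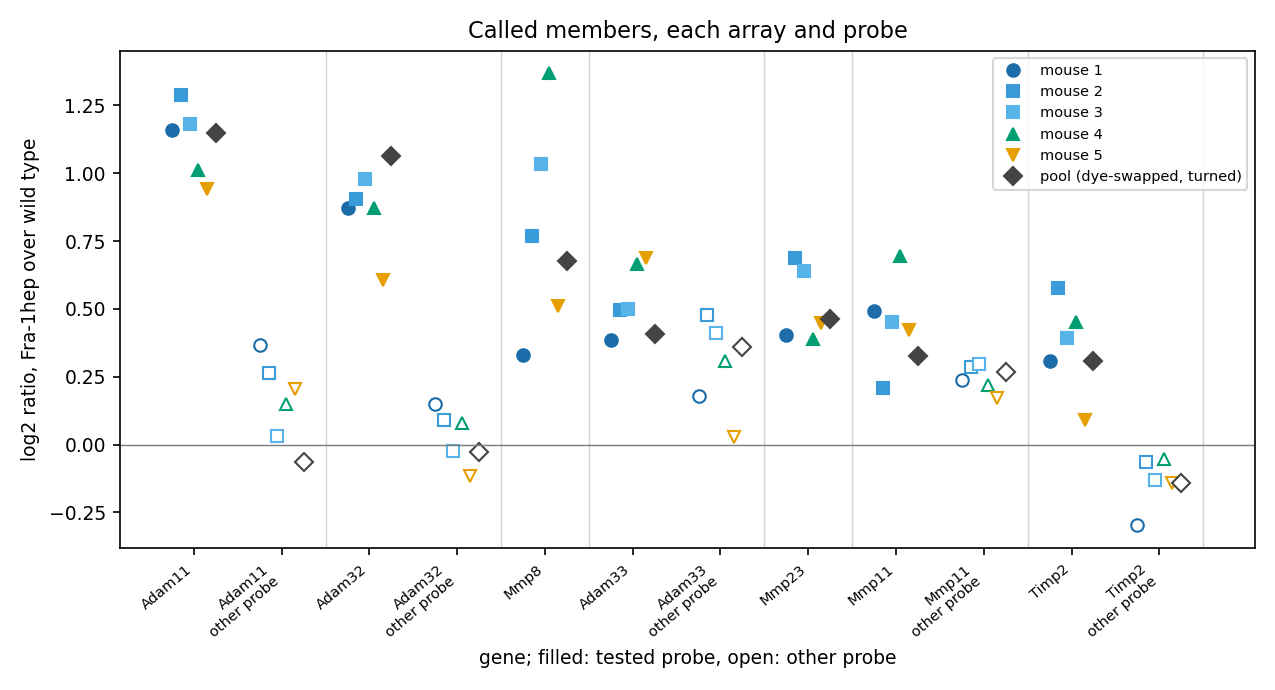
Log2 ratio of Fra-1hep over wild type on each of the 6 arrays (points) for the 7 called genes, with the tested probe filled and any other probe of the gene open. All filled points lie above 0, while the second probe of Adam11 lies between -0.07 and 0.37, that of Adam32 on both sides of 0 and that of Timp2 below 0.

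The AP-1 target list, fixed from textbook knowledge, holds Mmp1a, Mmp1b, Mmp3, Mmp7, Mmp9, Mmp10, Mmp12, Mmp13 and Timp1. Of these 9 genes 3 were bright enough to test (Mmp7, Mmp9 and Timp1) and 0 were called by limma. All 3 had an unadjusted p under 0.05, a count without a baseline here, with Mmp7 and Mmp9 above 0 and Timp1 below. Their median log2 ratio of 0.39 is the value of Mmp7, and Mmp9 was above background on 0 of 6 arrays for wild-type RNA. The exact AP-1 motif TGAGTCA or TGACTCA lies in the 100 bases before an annotated start of transcription in 7 of the 9 genes. Timp1 does not have these letters there, and Mmp9 has no promoter window among the sequences used here. Variants of the motif were not searched, so a gene without these letters may still have an AP-1 site. The stretches below are from RefSeq on GRCm38.p6, on the sense strand from base -100 to base -1, with each TGAGTCA or TGACTCA in capitals (each is the reverse complement of the other, so both strands are covered). The first 7 are shown because they carry this exact motif, and Mmp8 and Timp1 are shown beside them as members without it.
Mmp1a, interstitial collagenase A, chr9:7464041-7464140, + strand: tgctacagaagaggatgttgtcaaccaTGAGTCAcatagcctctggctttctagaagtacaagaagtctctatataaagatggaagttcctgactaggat
Mmp1b, interstitial collagenase B, chr9:7388027-7388126, - strand: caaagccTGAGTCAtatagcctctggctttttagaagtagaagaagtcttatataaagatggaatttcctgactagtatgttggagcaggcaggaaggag
Mmp3, stromelysin 1, chr9:7445722-7445821, + strand: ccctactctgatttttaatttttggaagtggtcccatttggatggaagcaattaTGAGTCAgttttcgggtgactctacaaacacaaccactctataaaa
Mmp7, matrilysin, chr9:7691990-7692089, + strand: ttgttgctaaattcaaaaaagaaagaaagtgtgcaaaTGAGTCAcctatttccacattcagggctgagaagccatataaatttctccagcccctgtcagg
Mmp10, stromelysin 2, chr9:7502242-7502341, + strand: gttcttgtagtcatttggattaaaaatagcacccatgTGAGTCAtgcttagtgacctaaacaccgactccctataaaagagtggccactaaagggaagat
Mmp12, macrophage elastase, chr9:7347274-7347373, + strand: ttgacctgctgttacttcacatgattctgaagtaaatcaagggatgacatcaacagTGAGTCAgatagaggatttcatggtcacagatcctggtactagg
Mmp13, collagenase 3, chr9:7272414-7272513, + strand: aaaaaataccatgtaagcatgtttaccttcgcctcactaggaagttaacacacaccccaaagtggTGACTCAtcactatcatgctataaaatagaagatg
Mmp8, neutrophil collagenase, chr9:7558329-7558428, + strand: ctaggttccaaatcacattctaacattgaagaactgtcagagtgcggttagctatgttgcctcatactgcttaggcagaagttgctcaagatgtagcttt
Timp1, inhibitor of MMPs, chrX:20870066-20870165, + strand: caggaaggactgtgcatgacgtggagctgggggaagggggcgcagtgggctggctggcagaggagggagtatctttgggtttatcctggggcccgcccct

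The motif begins 35 bases before the start in Mmp13, 44 in Mmp12, 46 in Mmp3, 63 in Mmp7 and Mmp10, 73 in Mmp1a and 93 in Mmp1b. Mmp7 and Mmp12 each have 2 annotated starts, and the motif falls in the window shown. Windows ran from 250 bases before to 50 after a start, and 49 of the 79 genes had one. The motif was in 7 of 8 target-list genes with a window and in 3 of 41 other members (Adam19, Adam1b and Adam29), or 7.32%, against 5.95% of 27025 genes with a window. None of the 4 called genes with a window (Mmp8, Mmp11, Mmp23 and Timp2) held it. A match is a description of these letters and not of binding, and the list was drawn up from genes known for this site.

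Those 7 promoters belong to genes that were dim in liver, apart from Mmp7. Mmp1a, Mmp3 and Mmp13 were above background on 0 arrays in either channel. Mmp1b, Mmp10 and Mmp12 were marked above background only on the array of mouse 3, and Mmp1b there in both channels. Signals of Mmp3 were 0.772 to 1.01 times the 95th percentile of negative-control spots for Fra-1hep RNA and 0.911 to 1.17 times for wild-type RNA. For Mmp13 these ranges were 0.858 to 1.09 and 0.892 to 1.04, and for Mmp1a 0.793 to 1.18 and 0.852 to 1.07. At this sensitivity no difference was detectable for these 6 genes, which does not show that there was none. With the 95th percentile as the measure of detection, 8 of the 9 target genes and 69 of all 79 members would count as detected.

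**Figure D4:**
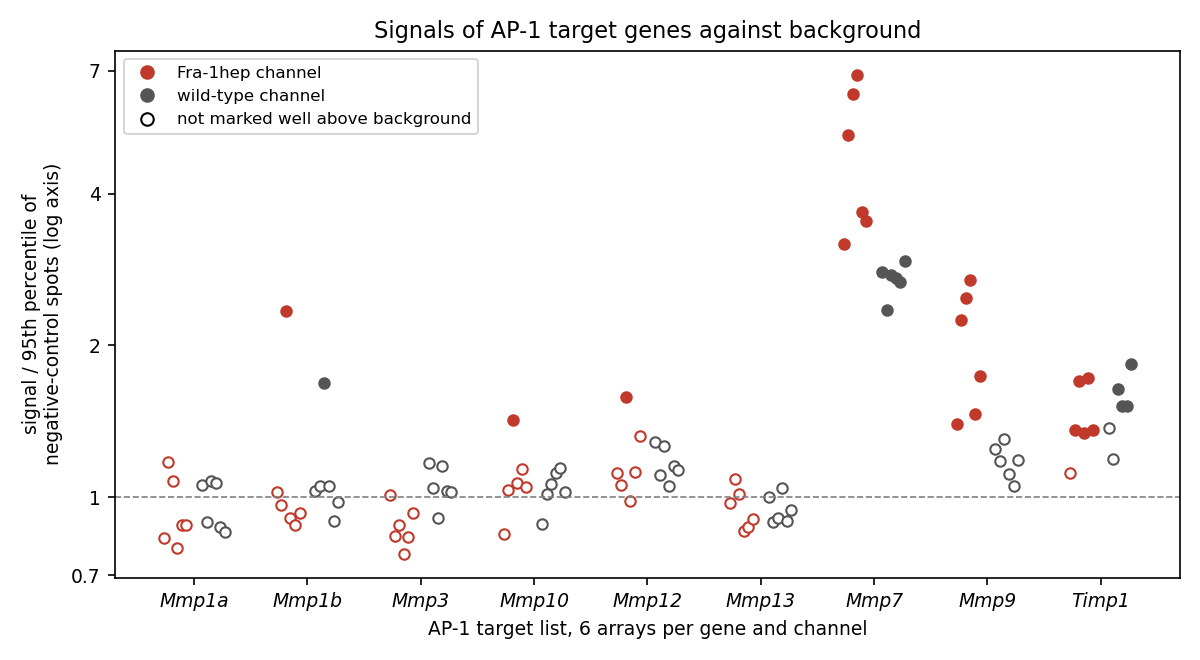
Signal of each AP-1 target gene divided by the 95th percentile of negative-control spots of the same array and channel (vertical log axis; dashed line at 1), 6 arrays per gene in the Fra-1hep and the wild-type channel, with open points where the scanner software did not mark the spot as well above background. Mmp1a, Mmp3 and Mmp13 lie around the dashed line, whereas Mmp7 lies at 3.18 to 6.88 in Fra-1hep and 2.35 to 2.94 in wild type.

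Of the inhibitors, Timp2 was higher by its brighter probe. Timp2 blocks many MMPs and is also the bridge by which Mmp14 activates the Mmp2 precursor. Its log2 ratios (A_52_P540219, NM_011594) were 0.31, 0.58, 0.39, 0.45 and 0.09 in mice 1 to 5 and 0.31 in the pool. Mouse 5 was close to 0 and the other arrays were clearly above. The fitted ratio was 0.32 (SE 0.08, n = 4, adjusted p = 0.0453). The second probe for the same accession was above background on all arrays and gave -0.14, with all 6 ratios below 0, so the probes disagree in direction. The call was lost in 7 of 19 alternatives, with an adjusted p of 0.0707 without mouse 1, 0.0573 without mouse 3 and 0.0819 without mouse 4, and of 0.458 at a ratio of 0.09 with the mean of both probes.

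Timp1, the inhibitor induced in injured liver and an AP-1 target, had log2 ratios of -0.30, 0.02, -0.22, -0.31 and -0.01 in mice 1 to 5 and -0.31 in the pool (A_55_P1985850). Mice 2 and 5 were near 0 and the other arrays below it. The probe was dim: it was above background on 5 of 6 arrays for Fra-1hep RNA and on 4 of 6 for wild-type RNA, and for mouse 1 in neither channel. Signals were 1.12 to 1.72 times the 95th percentile of negative-control spots for Fra-1hep RNA and 1.19 to 1.84 times for wild-type RNA. The fitted ratio was -0.25 (SE 0.08, adjusted p = 0.0775), and with the processed signals it was -0.82 at an adjusted p of 0.232. Timp1 passed the threshold in 3 of 18 alternatives (adjusted p from 0.0405 to 0.232). Timp3, which stays bound to the matrix and also blocks Adam17, had ratios of 0.67 and 0.24 in mice 1 and 2 and between -0.06 and 0.06 on the other arrays, with a fitted ratio of 0.10 (SE 0.13, adjusted p = 0.684). Timp4 was above background on 0 arrays.

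Adam11, by its brighter probe, was the ADAM gene with the largest fitted ratio here, an order that did not hold with the processed signals or the authors' table, with offset 10 or with the mean of its probes, where Adam32 was higher. It encodes a membrane protein without protease activity that is known from neurons, where it binds LGI proteins. Log2 ratios of its brighter probe (A_52_P205255, NM_001110778) were 1.16, 1.29, 1.18, 1.01 and 0.94 in mice 1 to 5 and 1.15 in the pool. The arrays were tightly grouped, and the fitted ratio was 1.12, or 2.17-fold (SE 0.07, n = 4, adjusted p = 0.000202). The second probe, listed for another transcript of the gene (A_55_P1962876, NM_009613), was also above background on all arrays and gave 0.08, with ratios of 0.37, 0.26, 0.03, 0.15 and 0.20 in the mice and -0.07 in the pool. The mean of both gave 0.60 (adjusted p = 0.00148). No source used here says where the probes lie in the transcripts.

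Adam32, a testis ADAM without protease activity, was 1.92-fold higher. Its log2 ratios (A_66_P106760, NM_153397) were 0.87, 0.90, 0.98, 0.87 and 0.61 in mice 1 to 5 and 1.06 in the pool. Mouse 5 was lowest, still well above 0, and the fit gave 0.94 (SE 0.08, n = 4, adjusted p = 0.000447). A second probe for the same accession was above background on 0 arrays. On chromosome 8 the gene lies between Adam5 and Adam9 in the RefSeq order, and these neighbours were not called (log2 ratios 0.14 and -0.07).

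Adam33, a protease of mesenchymal cells known as an asthma susceptibility gene, was higher. The brighter probe (A_55_P2083694, NM_033615) had log2 ratios of 0.38, 0.50, 0.50, 0.67 and 0.69 in mice 1 to 5 and 0.41 in the pool. Mice 4 and 5 were highest, and the fitted ratio was 0.48 (SE 0.07, n = 4, adjusted p = 0.00639). The other probe gave 0.30 and was above 0 on all arrays. Beside Adam33 and Mmp11, both known from stromal cells, 14 stellate cell and fibroblast markers were tested, of which 3 were higher and 2 lower with a median log2 ratio of -0.04. Of these, Pdgfra, a receptor of fibroblasts, was higher (0.51, adjusted p = 0.00225) and Acta2, smooth muscle actin, lower (-0.84, adjusted p = 0.00137). The summed signal of the list ranged from 22880 to 26290 for Fra-1hep RNA and from 19660 to 22220 for wild-type RNA, and the part of these cells in the results was not tested.

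The main sheddases were measured on most arrays and were not called; they are named here after their values were seen. Adam10 had a log2 ratio of -0.02 (SE 0.06, adjusted p = 0.849), and Adam17 ranged from -0.15 in the pool to 0.38 in mouse 1 (adjusted p = 0.999). Adam8, a leukocyte sheddase named here after its values were seen, was at -0.24 in mouse 1, from 0.23 to 0.42 in the other mice and at 0.34 in the pool. The fitted ratio was 0.26 (SE 0.12, adjusted p = 0.2), with an adjusted p of 0.0252 without mouse 1. Adam8 passed the threshold in 2 of 19 alternatives (adjusted p from 0.0211 to 0.373). Adam23, a non-proteolytic ADAM known from neurons and also named after its values were seen, was not called. It was below 0 on all 6 arrays with both probes (A_51_P282144, from -0.94 in mouse 3 to -0.24 in mouse 1), with a fitted ratio of -0.44 (SE 0.12, adjusted p = 0.0522), and it passed the threshold without mouse 1 (adjusted p = 0.045) and without mouse 3 (adjusted p = 0.0478), as in 10 of 19 alternatives (adjusted p from 0.00667 to 0.114).

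**Figure D5:**
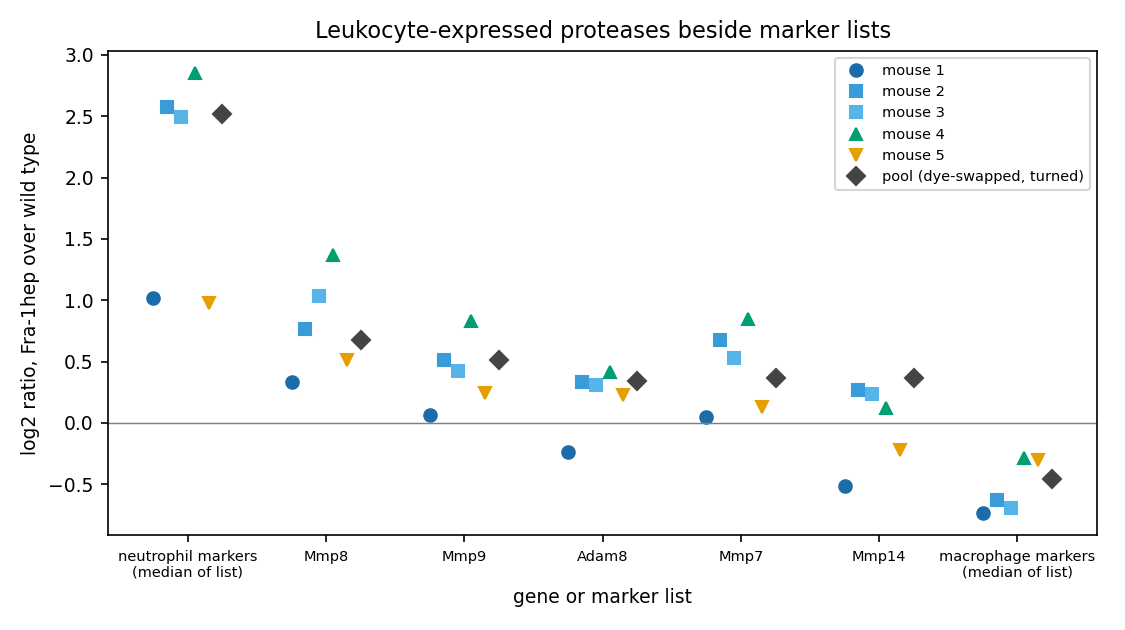
Log2 ratio of Fra-1hep over wild type on each array for Mmp8, Mmp9, Adam8, Mmp7 and Mmp14, beside the median ratios of the neutrophil and macrophage marker lists. Mouse 1 is the lowest of the 6 arrays for each of the 5 genes and mouse 5 the second lowest; for the neutrophil list these mice are also lowest, at 1.02 and 0.98, while the macrophage list is below 0 on every array.

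None of the 10 tested ADAMTS genes was called by limma, and at an unadjusted p under 0.05 there were 2, Adamts2 and Adamts9. Adamts15, which cleaves proteoglycans, had the second largest spread between mice among members not called. Its log2 ratios (A_51_P311038) were -0.31, 0.31, 0.51, 0.47 and 0.15 in mice 1 to 5 and 0.18 in the pool. Mouse 1 lay below 0 and all other arrays above, with a fitted ratio of 0.18 (SE 0.14, adjusted p = 0.455).

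Other genes of the same pathways were read from lists fixed with the members. Of 13 tested genes that activate or inhibit MMPs apart from TIMPs, 0 were higher and 2 lower: Tfpi2, a Kunitz inhibitor of plasmin and MMPs (log2 -0.58, adjusted p = 0.00843), and Pzp, a protease-trapping relative of alpha-2-macroglobulin (-0.44, adjusted p = 0.0136). Both lost the call with the processed signals (adjusted p = 0.0682 and 0.0758), and Pzp also with median centring (adjusted p = 0.104). The plasminogen system, whose product plasmin activates MMP precursors, had 0 of 6 tested genes called by limma at a median log2 ratio of -0.01, and 2 at an unadjusted p under 0.05, Serpine2 and Plgrkt, both lower. Of 13 other matrix-degrading proteases 6 were higher and 1 lower. Mep1a, the meprin alpha subunit, was 6.54-fold higher (log2 2.71, SE 0.20, adjusted p = 0.000389). Fap, a serine protease of activated fibroblasts, was higher at 0.34 (adjusted p = 0.00797), as was the neutrophil protease Ctsg at 2.17 (adjusted p = 0.00912). Ctss, a cathepsin of macrophages, was lower at -0.54 (adjusted p = 0.00985).

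Among 9 tested partners of Adam10 and Adam17, 1 was higher and 0 lower. The higher gene was Rhbdf1, the inactive rhomboid that brings Adam17 to the cell surface (log2 1.01, SE 0.12, adjusted p = 0.00252). Of 28 tested substrates of Adam10, Adam17 or both, 5 were higher and 4 lower, with a median log2 ratio of -0.00395. Cdh1, E-cadherin, was higher at 0.77 (adjusted p = 0.00238) and Il6ra, the interleukin 6 receptor, at 0.63 (adjusted p = 0.00472, and 0.0537 with the processed signals). The receptor kinases Mertk and Axl were lower at -0.66 (adjusted p = 0.00451) and -0.37 (adjusted p = 0.0126). Of 5 ADAMTS-like and ADAM-like genes 1 was higher, Adamtsl2, a secreted microfibril protein (0.48, adjusted p = 0.0147). The AP-1 subunits themselves had 0 of 6 tested genes called by limma at a median log2 ratio of 0.02, and 2 at an unadjusted p under 0.05, Fosl2 above 0 and Junb below. Junb had a fitted ratio of -0.19 (adjusted p = 0.159 with limma) and stood at 0.02 on the dye-swapped array. It was called lower only when the mouse arrays were tested without that array (log2 -0.41, adjusted p = 0.00478). There genotype and dye cannot be told apart, and 26.7% of all genes were called.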

How the data were processed

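Liver RNA of 5 Fra-1hep mice and 1 Fra-1hep pool was set against 1 wild-type pool on 6 arrays. The authors' deposited scanner files (Feature Extraction of Agilent, version 10.7.3.1 per the file headers and 10.7 per the submitters' processing notes) hold the intensity of each spot and channel with no normalization, and the log10 ratio of red over green after background subtraction and dye normalization, per the file headers. In the series table the authors deposited the same ratios as log2 values, used here as an alternative. Its columns match the scanner files' processed ratios turned to Fra-1hep over wild type (median absolute difference at most 1.73e-07), with column medians from -0.18 to 0.06. The arrays' median intensity as deposited ranged from 90.5 to 114 for Cy5 and from 46 to 58 for Cy3, with 0 saturated spots.

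Here, background was corrected with normexp (offset 50, which pulls ratios of dim probes towards 0) and ratios were normalised by loess within each array in limma 3.58.1 (R 4.3.3), with control and outlier spots at weight 0. No probe of a tested member lost an array to outlier marks. limma fitted genotype with a constant for dye, tested 2-sided with 3 residual and 4.67 prior degrees of freedom. The swapped array weighs as much as the mouse arrays together, and its own error is not estimated. Labels name separate mice, but the wild-type pool's spread is not measured, and the number of arrays limits the precision. Probes were named through the GRCm38.p6 RefSeq gene list, which holds 80 symbols of the family, of which Mmp27 had no probe here. Promoter letters were counted in the RefSeq table of that build, and protein sequences were not analysed here. Named with values were the called members, the AP-1 target list, the TIMPs, the 3 uncalled members with the largest spread and at most 4 genes per other list; exceptions are stated. The members and lists were chosen with earlier results of these data known. The fit was run on simulated data in which each array had independent noise. The simulation held no error shared through the wild-type pool, so it cannot check the p-values against such error. Alternatives covered normalization, processed signals, offset, filter, probe choice, replicates, dye, variance model and slide.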

Additional observations from a re-analysis of the deposited data

Results flagged for a closer look

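Adamts13, the protease that trims von Willebrand factor and is made in liver by stellate cells, stood out for 1 mouse. Its log2 ratio was -0.25 in mouse 4, while the other mouse samples lay between 0.21 and 0.27 and the dye-swapped array at 0.25, and the gap to the nearest sample was 0.883 of the whole range. This was 1 of 43 tested members looked at in this way, and chance alone sets apart about 1 in 20 such groups. The gene was not called (log2 0.18, SE 0.10, adjusted p = 0.305 with limma), and without mouse 4 the ratio was 0.24 at an adjusted p of 0.0594.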

How the results depend on the processing

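Adam11, Adam32, Adam33, Mmp11 and Mmp23 were called higher in all 19 alternatives, while Mmp8 was called in 16 of 18 and Timp2 in 12 of 19. The log2 ratio ranged from 0.60 to 1.35 for Adam11, 0.82 to 1.57 for Adam32, 0.33 to 0.90 for Mmp11 and 0.63 to 3.21 for Mmp8. Leaving out each mouse in turn gave 6 to 8 members higher, 0 to 1 lower, 1118 to 1306 genes higher and 1201 to 1450 lower; the member lower without mouse 1 and without mouse 3 was Adam23. Members higher numbered 12 with no dye term, 11 from the mouse arrays alone and 12 within the slide that holds 2 mouse arrays and the dye-swapped array, against 7. Members lower numbered 1 with no filter on dim probes, the mean of probes, 5 separate mouse arrays, the mouse arrays alone and slide as a random block (correlation -0.0159), and 2 with no dye term, with intensity trend and robust variance and within that slide, against 0. Genes higher and lower over the whole array were 2466 and 833 with median centring (74.7% higher, against 47.8%), 753 and 792 with processed signals, 754 and 791 with the authors' table, 2482 and 2304 with no dye term and 3462 and 2637 from the mouse arrays alone, against 1364 and 1487. Mmp14 turned to -0.090 from 0.14 in the mouse arrays alone. The 95th percentile of negative controls counted 69 members as detected, against 43. The cause of these changes was not tested. With slide as a fixed block all 7 calls were kept and Mmp9 was called as well. No paired analysis was possible because each mouse was set against the same wild-type pool, so no replicate number is shared between groups. The signal over background limits the 36 untested members, and the offset the size of dim ratios.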

Other observations

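Mmp23 lies in a stretch of chromosome 4 whose measured neighbours were also higher, a pattern chosen here after its values were seen. In the RefSeq order (GRCm38.p6, used for order only) Cdk11b comes just before Mmp23, and Mib2 and then Fndc10 come after it. Their log2 ratios were 0.39 for Cdk11b (adjusted p = 0.0075), 0.40 for Mib2 (adjusted p = 0.00629) and 1.35 for Fndc10 (adjusted p = 3.415e-05), beside 0.47 for Mmp23. Slc35e2, the next gene before Cdk11b, was not called (log2 0.13, adjusted p = 0.437). For the other called members no such run was seen among the 2 nearest protein-coding genes on each side: Siglec1 beside Adam33 and Lgals3bp near Timp2 were lower (log2 -0.60 and -0.44), as was Derl3 near Mmp11 (-1.17), and no other measured neighbour was called. The neighbours of Mmp8, which are Mmp1a, Mmp10, Mmp27 and Mmp20, were too dim to test or had no probe here.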
